A study of Mus musculus with 23 samples.

Results

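The clotting genes that endothelial cells are known for were followed as a set of 9 members, *Vwf*, *Thbd*, *Procr*, *Tfpi*, *F3*, *F2r*, *Plat*, *Plau* and *Plaur*. They were chosen by name, and each was found on the array through the RefSeq identifier of its probes, with the probe of highest mean standing for the gene. All 9 of 9 had a probe among 20145 named genes, and all 9 were expressed, meaning a log2 intensity no lower than 6.5 on 1 array or more, as were 15202 genes in total. Gene expression was measured with Agilent arrays in 1 colour in cells grown from a mouse C57BL/6 embryonic stem cell line, obtained as picked clones, that carries HA-tagged human RUNX1-ETO under a doxycycline (Dox)-responsive promoter while its own *Runx1* is wild type. RUNX1-ETO is the fusion protein made by a chromosomal translocation in acute myeloid leukaemia. Flk1+ cells from the differentiating stem cells were placed in blast culture, Dox was given at 0.1 µg/ml on day 1 or withheld, and on day 2 cells were sorted as haemogenic endothelium (HE, KIT+Tie2+CD41-), a later stage called HE2 (KIT+Tie2+CD41+) or progenitors (KIT+Tie2-CD41+). Myeloid progenitors came from day 2 progenitors moved to expansion medium with cytokines, with or without Dox for 12 hours, and were harvested on day 3. All groups carry the transgene, and no Dox-treated cells without it were analysed here, so that Dox itself and RUNX1-ETO cannot be told apart. The HE, HE2 and myeloid progenitor groups had 3 arrays each with and without Dox, and the progenitor groups 2 each. A further uninduced progenitor array, named as a technical replicate in its title, was left out of the fit and its values are given separately.

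Clotting starts when tissue factor, encoded by *F3*, binds factor VII, and it leads to thrombin. Resting endothelium holds thrombin in check: tissue factor pathway inhibitor (*Tfpi*) blocks the starting complex, while thrombomodulin (*Thbd*) captures thrombin and turns it to the activation of protein C, which the endothelial protein C receptor (*Procr*) presents. Thrombin signals to cells by cutting the receptor PAR1 (*F2r*), and von Willebrand factor (*Vwf*), which is stored in endothelial cells and in megakaryocytes, tethers platelets to damaged vessel walls. Clots are dissolved by plasmin, which tissue plasminogen activator (*Plat*) and urokinase (*Plau*) release from plasminogen, the latter on its receptor (*Plaur*). Several of these genes also mark the vessel lining from which blood cells emerge, *Procr* being a known surface marker of haematopoietic stem cells.

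Promoters (250 bases before to 50 bases after the start) were found for 5 of the 9 members in the RefSeq table of GRCm38.p6, as 6 sequences, since *Tfpi* has a pair of starts. Those of *F2r*, *Procr* and *Plaur* are shown because these members passed the test for Dox in at least 1 stage. *Vwf*, *Thbd* and *Plat* passed too, and no promoter was found for them. Capitals mark matches, on either strand, to the RUNX letters TGTGGT and TGCGGT, the ETS letters CCGGAA and AGGAAG, the GATA letters AGATAA and TGATAA, and the KLF letters CCACCC.
F2r, chr13:95618417-95618716, minus strand: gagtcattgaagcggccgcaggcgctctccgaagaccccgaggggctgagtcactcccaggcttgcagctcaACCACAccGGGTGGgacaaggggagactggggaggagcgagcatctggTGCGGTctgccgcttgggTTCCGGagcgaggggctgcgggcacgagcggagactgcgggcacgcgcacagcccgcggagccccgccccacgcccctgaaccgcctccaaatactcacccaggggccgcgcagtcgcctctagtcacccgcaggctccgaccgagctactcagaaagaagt
Procr, chr2:155750967-155751266, plus strand: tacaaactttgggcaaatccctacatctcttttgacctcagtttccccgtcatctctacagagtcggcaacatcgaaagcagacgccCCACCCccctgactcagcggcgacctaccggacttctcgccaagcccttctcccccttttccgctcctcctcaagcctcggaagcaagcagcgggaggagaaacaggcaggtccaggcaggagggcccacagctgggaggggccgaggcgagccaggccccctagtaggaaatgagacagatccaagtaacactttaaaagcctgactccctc
Plaur, chr7:24462233-24462532, plus strand: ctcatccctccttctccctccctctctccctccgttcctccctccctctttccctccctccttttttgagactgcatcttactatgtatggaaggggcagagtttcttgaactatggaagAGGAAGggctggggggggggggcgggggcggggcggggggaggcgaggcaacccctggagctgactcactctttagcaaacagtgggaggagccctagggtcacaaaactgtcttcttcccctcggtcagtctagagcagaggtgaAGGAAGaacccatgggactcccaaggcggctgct
The *F2r* promoter held both RUNX forms, TGTGGT on the opposite strand 178 bases before the start and TGCGGT 130 bases before it, and beside them 1 KLF and 1 ETS match at 170 and 112 bases before the start. Of the 6 promoters, the other 5 held neither RUNX form. Among all 32851 promoters of the same length, 16.8% held TGTGGT, 6.45% TGCGGT, 14.9% CCGGAA, 35.4% AGGAAG, 11.2% AGATAA, 9.05% TGATAA and 31.5% CCACCC. None of the matches overlapped another. Both *Tfpi* promoters held ETS and GATA letters, and that of *F3* held CCACCC 248 bases before the start and again 12 bases after it.

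Values below are log2 intensities of 1 probe, so that they compare groups for a gene and not genes with each other. A gene was said to have changed where limma's moderated test gave P no greater than 0.001 before adjustment together with a 2-fold or larger change, and the adjusted P values printed are Benjamini-Hochberg values over the 15202 genes. As a check of induction, *Runx1t1*, the mouse counterpart of the fusion's ETO part, lay between 11.05 and 12.46 on the 11 arrays with Dox and between 7.50 and 11.14 on the 11 arrays without in the fit. Whether its mouse probe reads the human transgene was not tested. Dox moved it by 1.24 on the log2 scale in HE, which missed the P limit (limma adjusted P = 0.0155), and 2.08, 3.96 and 2.06 in HE2, progenitors and myeloid progenitors. The share of spots well above background ran from 48.8% to 78.4% across the 23 arrays, and no spot was saturated. All 8 endothelial markers (*Cdh5*, *Tek*, *Kdr*, *Pecam1*, *Tie1*, *Emcn*, *Esam*, *Cldn5*) were well above background on all HE and HE2 arrays.

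Which of the 9 genes passed the limits with Dox varied by stage. In HE, 2 of 9 changed, both lower with Dox (*Vwf* and *F2r*), where 7.09% of all genes changed in either direction. In HE2, 2 of 9 changed, both higher (*Thbd* and *Procr*), against 7.22% of all genes. In progenitors, 2 of 9 changed, both higher (*Vwf* and *Thbd*), against 3.73%. In myeloid progenitors, 5 of 9 changed, with *Thbd*, *Procr*, *Plat* and *Plaur* higher and *Vwf* lower, against 6.31%. The median log2 difference of the 9 genes was 0.45, 0.06, 1.41 and 0.95 in these 4 stages, and that of all genes -0.01, -0.03, -0.04 and -0.02. In these bulk samples, fewer cells of a type and less RNA per cell cannot be told apart.

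**Figure D1:**
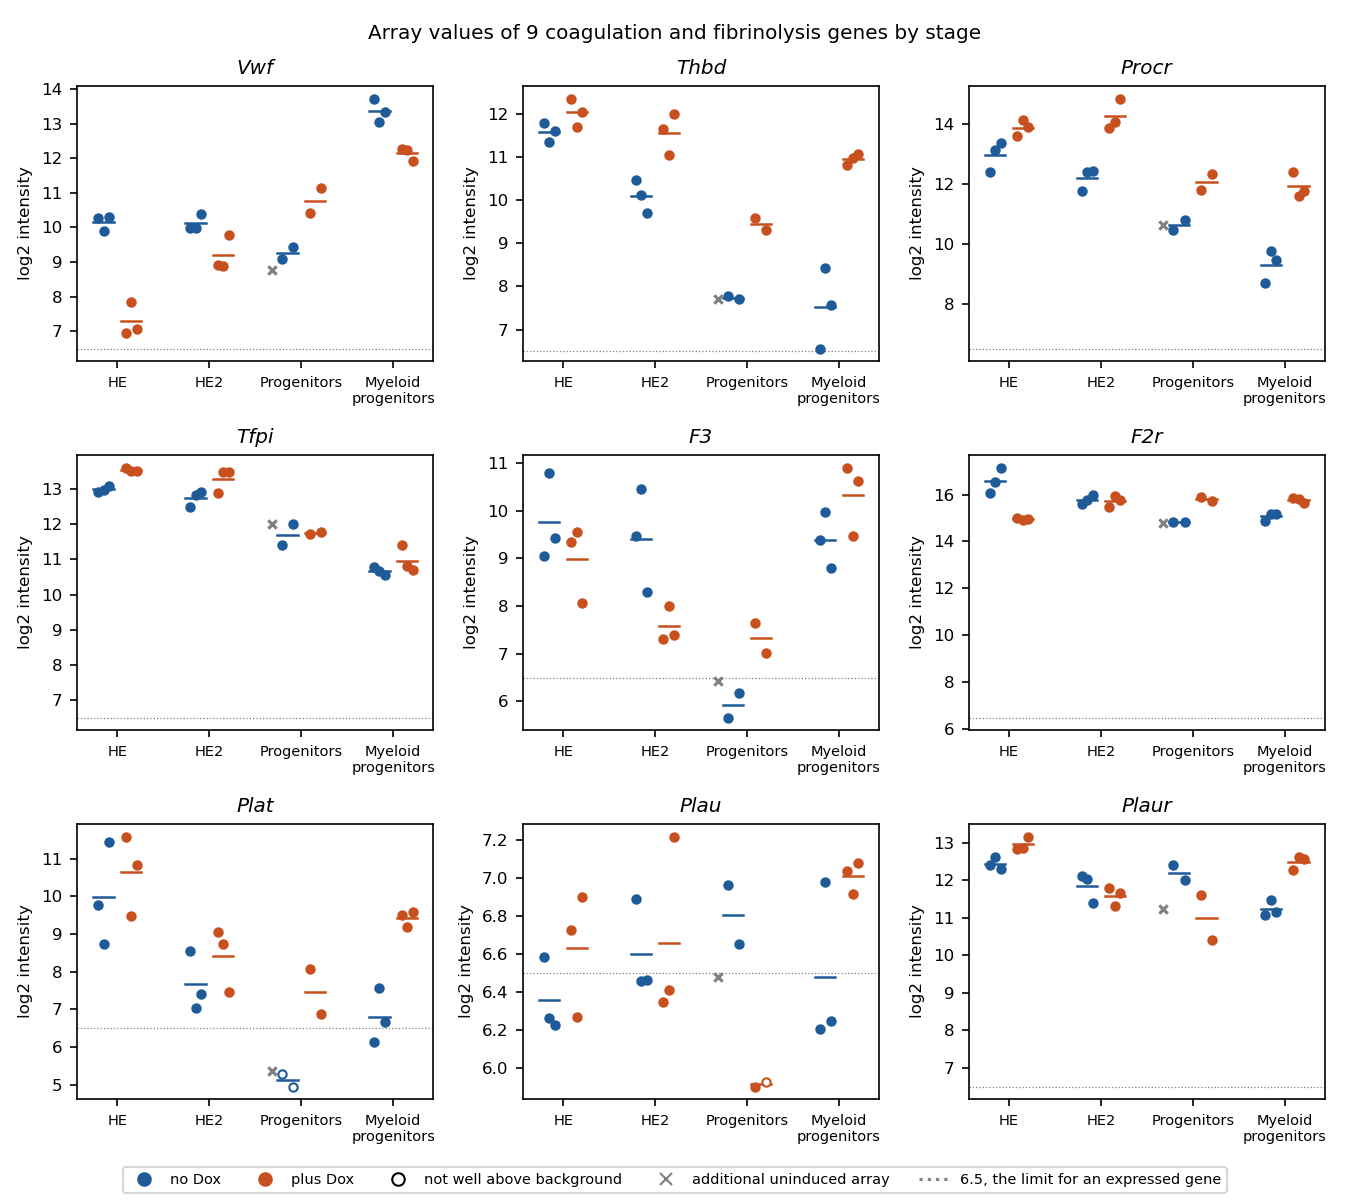
Log2 intensity (y axis) of each of the 9 genes on every array, by stage (x axis), without Dox in blue and with Dox in orange. Bars are group means, open circles are arrays where the probe was not well above background, crosses the additional uninduced progenitor array, and the dotted line the limit of 6.5. *Thbd* and *Procr* with Dox lie above their uninduced arrays from HE2 onward, while *Vwf* lies below in HE, HE2 and myeloid progenitors and above in progenitors.

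Thrombomodulin, the thrombin-binding anticoagulant receptor, stood lower at each successive uninduced stage up to the progenitors, and with Dox it was higher from HE2 onward. *Thbd* read 11.78, 11.35 and 11.60 in uninduced HE and 10.47, 10.12 and 9.71 in uninduced HE2. It then read 7.78 and 7.70 in uninduced progenitors and 6.56, 8.42 and 7.56 in uninduced myeloid progenitors. The first 3 of these groups did not overlap, and the last overlapped the progenitors. *Thbd* fell from HE to HE2 by 1.48 ± 0.35 (SE of the fit) on the log2 scale (limma adjusted P = 0.00891). It was the 1 of 9 genes that changed in this step, against 5.07% of all genes, and the call was lost without uninduced HE array 1 or 3 or HE2 array 2 or 3, at log2 changes of -1.28 to -1.49, and under 75th percentile scaling (-1.44). From HE2 to progenitors *Thbd* fell by 2.36 ± 0.39 (limma adjusted P = 0.00046), and between progenitors and myeloid progenitors the log2 difference was -0.23 with a 95% interval of -1.04 to 0.58.

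With Dox, *Thbd* read 12.35, 11.70 and 12.04 in HE, 11.65, 11.03 and 12.004 in HE2, 9.58 and 9.30 in progenitors, and 10.82, 10.97 and 11.06 in myeloid progenitors. The HE arrays overlapped those without Dox, and at the other stages every array with Dox lay above every array without. The Dox difference in HE was 0.45 (95% interval -0.27 to 1.18). *Thbd* rose 2.76-fold in HE2 (log2 change 1.46 ± 0.35, limma adjusted P = 0.00629), 3.25-fold in progenitors (1.70 ± 0.42, limma adjusted P = 0.0219) and 10.8-fold in myeloid progenitors (3.43 ± 0.35, limma adjusted P = 2.04e-06). The HE2 call was lost without uninduced array 2 or 3 or induced array 1 or 3 (log2 changes 1.24 to 1.47). The progenitor call was lost without any 1 of its 4 arrays (1.56 to 1.84). With slide as a block it was 1.71 and missed the P limit (limma adjusted P = 0.143), and 75th percentile scaling ended both the HE2 call (limma adjusted P = 0.0139) and the progenitor call (1.83, limma adjusted P = 0.0339). In a fit of the HE2 groups alone the HE2 call was lost too (limma adjusted P = 0.0273). The myeloid call was kept in all of these fits. Without Dox *Thbd* had fallen from HE to HE2, while with Dox the same step gave -0.47 with an interval of -1.19 to 0.26. The later step from induced HE2 to induced progenitors was a fall of 2.12 ± 0.39 (limma adjusted P = 0.000976), lost without induced progenitor array 2 (-1.98).

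*Procr*, the receptor that hands protein C to thrombomodulin, had much the same order of groups. It read 12.40, 13.15 and 13.38 in uninduced HE and 11.77, 12.39 and 12.44 in uninduced HE2, which overlap. It read 10.46 and 10.81 in uninduced progenitors and 8.69, 9.77 and 9.45 in uninduced myeloid progenitors, each group below the one before. The fall from HE2 to progenitors, by 1.57 ± 0.37 on the log2 scale, passed the limits (limma adjusted P = 0.0106), though it was lost without uninduced HE2 array 2 or 3 or either progenitor array, at -1.39 to -1.74. It was lost as well under 75th percentile scaling (-1.64) and when the compared groups were fitted alone. The step to myeloid progenitors was -1.33 ± 0.37 and missed the P limit (limma adjusted P = 0.0105), which it passed with the additional progenitor array in the fit (-1.33, limma adjusted P = 0.00402).

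With Dox *Procr* read 13.60, 14.14 and 13.91 in HE, 13.89, 14.10 and 14.87 in HE2, 11.82 and 12.32 in progenitors, and 12.41, 11.61 and 11.76 in myeloid progenitors. At all 4 stages every array with Dox lay above every array without. *Procr* rose 4.24-fold in HE2 (log2 change 2.08 ± 0.33, limma adjusted P = 0.000277) and 6.16-fold in myeloid progenitors (2.62 ± 0.33, limma adjusted P = 2.36e-05), and both calls were kept without any 1 array. The Dox differences in HE, 0.91 with an interval of 0.21 to 1.61, and in progenitors, 1.44 with an interval of 0.58 to 2.29, did not pass. With the additional array in the fit the latter was 1.43 and passed (limma adjusted P = 0.0189). That fit counts an array named as a technical replicate as an independent one. From induced HE2 to induced progenitors *Procr* fell by 2.21 ± 0.37 (limma adjusted P = 0.00049).

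The endothelial markers moved with these receptors. Of the 8 markers, Dox raised 1 in HE, 3 in each of HE2 and progenitors, and 6 in myeloid progenitors, and none fell at any of the 4 stages. Their summed intensity ran from 11033 to 15164 in uninduced and from 47649 to 56619 in induced myeloid progenitors, from 23056 to 24084 and from 42137 to 50321 in progenitors, and from 45315 to 64495 and from 114160 to 121834 in HE2. In HE the sums overlapped (75110 to 154135 and 84482 to 148720). All 8 markers were well above background on at least 1 array of each of the 8 groups. The part of endothelial cell content in the *Thbd* and *Procr* values was not tested.

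*Tfpi*, the inhibitor of the tissue factor complex, moved by stage, with no Dox difference that passed. It read 12.91, 12.97 and 13.10 in uninduced HE and 13.62, 13.51 and 13.51 in induced HE, which do not overlap. The difference of 0.55 ± 0.21 was under 2-fold and also missed the P limit (limma adjusted P = 0.0897). In HE2 it read 12.49, 12.85 and 12.92 without and 12.88, 13.47 and 13.48 with Dox. In progenitors it read 11.40 and 12.01 without and 11.71 and 11.79 with Dox, a difference of 0.04 with an interval of -0.50 to 0.58. In myeloid progenitors it read 10.77, 10.66 and 10.57 without and 11.41, 10.80 and 10.69 with Dox, a difference of 0.30 with an interval of -0.14 to 0.74. Between stages the steps were larger. Without Dox *Tfpi* fell by 1.05 ± 0.23 from HE2 to progenitors (limma adjusted P = 0.00712) and by 1.04 ± 0.23 from there to myeloid progenitors (limma adjusted P = 0.00257), and with Dox by 1.53 ± 0.23 from HE2 to progenitors (limma adjusted P = 0.000227). The first call was lost without uninduced HE2 array 2 or 3 or progenitor array 1 (-0.74 to -0.997) and the second without uninduced progenitor array 2 or myeloid array 2 or 3 (-0.74 to -1.04). The first was also lost under 75th percentile scaling (-1.05), with the additional array (-0.94) and in a fit of the compared groups alone, and the second under 75th percentile scaling (-1.12), with slide as a block (-0.97, limma adjusted P = 0.226), in a fit of the compared groups alone and as the mean over the gene's 3 probes (-0.49). The step with Dox was lost when its groups were fitted alone (limma adjusted P = 0.0376). The probes differed in size with Dox. From HE to myeloid progenitors the chosen probe gave 0.55, 0.53, 0.04 and 0.30, a second probe 0.68, 0.27, 0.29 and 0.17, and the third 0.39, 1.17, 0.76 and 0.60, the latter pair of probes untested.

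In the step from HE2 to progenitors without Dox, 4 of 9 genes changed, all lower (*Thbd*, *Procr*, *Tfpi* and *F3*), against 5.39% of all genes. With Dox, 4 of 9 changed as well, *Thbd*, *Procr* and *Tfpi* lower and *Vwf* higher, against 7.36%. The endothelial markers fell in the same step, 4 of 8 without and 4 of 8 with Dox. The sort parts these stages by Tie2, which *Tek* of that list encodes, so that these counts are not independent of the sort.

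Tissue factor, the initiator of clotting, had its lowest readings in uninduced progenitors. *F3* read 9.05, 10.79 and 9.43 in uninduced HE, 9.48, 10.45 and 8.29 in uninduced HE2, 5.66 and 6.17 in uninduced progenitors, and 9.39, 9.98 and 8.81 in uninduced myeloid progenitors. The progenitor arrays were the only ones under 6.5, with the additional array at 6.42, and the other 3 groups overlapped. *F3* fell 11.2-fold from HE2 to progenitors (log2 change -3.49 ± 0.62, limma adjusted P = 0.000933) and rose 11.1-fold to myeloid progenitors (3.48 ± 0.62, limma adjusted P = 0.000358). The fall missed the P limit when its groups were fitted alone (limma adjusted P = 0.0261). With slide as a block the rise was 3.89 and missed the limit (limma adjusted P = 0.0712), and the 3 uninduced myeloid arrays lay 2.97 above the additional progenitor array on their own slide.

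No Dox difference of *F3* passed. With Dox it read 9.34, 9.57 and 8.06 in HE, 7.32, 8.002 and 7.40 in HE2, 7.64 and 7.02 in progenitors, and 10.91, 9.48 and 10.63 in myeloid progenitors. In HE2 every array with Dox lay below every array without, at a difference of -1.83 ± 0.55 (limma adjusted P = 0.0276), and without uninduced HE2 array 3 this was -2.39 and passed. In progenitors both arrays with Dox lay above both without, at 1.41 with an interval of -0.01 to 2.83. Its second probe gave smaller Dox differences of the same sign at each stage, -0.50, -0.93, 0.44 and 0.30 from HE to myeloid progenitors, where the chosen probe gave -0.77, -1.83, 1.41 and 0.95.

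*F2r*, which encodes the thrombin receptor PAR1, fell with Dox in HE. It read 16.05, 16.54 and 17.15 without and 15.01, 14.91 and 14.95 with Dox there, a 3.07-fold fall (log2 change -1.62 ± 0.21, limma adjusted P = 3.25e-05) kept without any 1 array. On the 2 slides that hold both groups the difference was -1.28 and -2.22. In HE2 the groups overlapped, at 15.62, 15.76 and 15.97 without and 15.47, 15.93 and 15.76 with Dox, and the difference was -0.06 with an interval of -0.50 to 0.38. In progenitors it read 14.84 and 14.84 without and 15.91 and 15.71 with Dox, and in myeloid progenitors 14.88, 15.15 and 15.18 without and 15.85, 15.80 and 15.63 with Dox. Those later groups did not overlap, every array with Dox being the higher. The differences of 0.97 ± 0.26 (limma adjusted P = 0.0329) and 0.69 ± 0.21 (limma adjusted P = 0.0357) were below 2-fold and also missed the P limit. With slide as a block the progenitor difference was 1.22 and passed both limits (limma adjusted P = 0.037), while, among the arrays of the fit, 1 slide holds both progenitor groups, with 1 array each and a difference of 1.06. The uninduced levels were ordered from HE to HE2 to progenitors, with steps of -0.80 and -0.94 that did not pass, though the second was -1.04 and passed under 75th percentile scaling. The *F2r* promoter is the one printed above with both RUNX forms, and whether these have a part in the *F2r* values was not tested.

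Von Willebrand factor changed with Dox in opposite directions at different stages, over readings from 6.95 to 13.72. *Vwf* read 10.26, 9.90 and 10.29 in uninduced HE and 6.95, 7.85 and 7.06 in induced HE. Every array with Dox lay far below those without, a 7.27-fold fall (log2 change -2.86 ± 0.28, limma adjusted P = 1.62e-06) that was kept without any 1 array and was -3.13 and -2.83 within the 2 slides. In HE2 it read 9.98, 9.99 and 10.38 without and 8.93, 8.88 and 9.78 with Dox. These groups did not overlap either. The difference of -0.92 ± 0.28 was under 2-fold and also missed the P limit (limma adjusted P = 0.0303), and with slide as a block it was -1.05 and passed. In progenitors the order turned, with 9.08 and 9.44 without Dox, 8.78 on the additional array, and 10.42 and 11.13 with Dox. This 2.86-fold rise (1.52 ± 0.34, limma adjusted P = 0.0119) was lost without uninduced array 1 or 2 or induced array 2, at log2 changes of 1.16 to 1.70, in a fit of the 2 progenitor groups alone (limma adjusted P = 0.141) and with slide as a block (1.35, limma adjusted P = 0.0799).

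The highest *Vwf* readings were in uninduced myeloid progenitors, at 13.72, 13.06 and 13.33, followed by induced myeloid progenitors at 12.27, 12.24 and 11.91. *Vwf* rose 17.3-fold from uninduced progenitors to uninduced myeloid progenitors (log2 change 4.11 ± 0.31, limma adjusted P = 4.25e-08), and the myeloid mean lay 4.59 above the additional progenitor array on the same slide. In this step 3 of 9 genes changed, *Vwf* and *F3* higher and *Tfpi* lower, against 13.9% of all genes. The uninduced progenitor arrays of the fit lay on other slides than the myeloid arrays, so that slide differs with stage here. Dox lowered *Vwf* 2.34-fold in myeloid progenitors (-1.23 ± 0.28, limma adjusted P = 0.00601), a call lost without uninduced array 1 or 3 or induced array 2 or 3 (-1.05 to -1.28). Between sorted stages, uninduced HE and HE2 did not differ beyond their spread (-0.03, interval -0.63 to 0.56), whereas with Dox *Vwf* rose 3.75-fold from HE to HE2 (1.91 ± 0.28, limma adjusted P = 0.000397) and 2.99-fold from HE2 to progenitors (1.58 ± 0.31, limma adjusted P = 0.00206). The last of these was lost without induced progenitor array 2 (1.22) and when its groups were fitted alone (limma adjusted P = 0.0761). In the step from HE to HE2 with Dox, 2 of 9 genes changed, *Vwf* higher and *Plaur* lower, against 3.1% of all genes.

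Platelet lineage markers followed a partly similar course. Of 7 megakaryocyte and platelet genes (*Gp1ba*, *Gp1bb*, *Gp9*, *Gp6*, *Pf4*, *Ppbp*, *Itgb3*), 6 rose from uninduced progenitors to uninduced myeloid progenitors and 6 fell with Dox in myeloid progenitors. Their summed intensity ran from 46168 to 52031 in uninduced progenitors, from 85691 to 94771 in uninduced and from 43688 to 48164 in induced myeloid progenitors. In HE 1 of 7 fell with Dox, and the sums overlapped (2152 to 5654 without and 1589 to 6601 with Dox). In progenitors none of the 7 passed, with sums of 46168 to 52031 without and 37138 to 41342 with Dox. Other blood lineages rose in the same step to uninduced myeloid progenitors, with all 4 erythroid markers (median log2 change 4.37, sums of 163181 to 197491 and then 710611 to 815254) and 3 of 5 macrophage and monocyte markers higher (median 2.05, sums of 6742 to 8532 and then 16078 to 26637). With Dox in myeloid progenitors none of these 9 passed. At the earlier stages Dox raised 1 of the 4 erythroid markers in HE, 1 in HE2 and 2 in progenitors. Their sums ran from 28362.5 to 39520 without and from 151380 to 297252 with Dox in HE. They ran from 72723 to 98435 and from 300618 to 358913 in HE2, and from 163181 to 197491 and from 349045 to 468388 in progenitors. Of the 5 macrophage and monocyte markers, none passed in HE or progenitors, and 2 fell in HE2. The part of megakaryocytic, erythroid or macrophage cells in the *Vwf* values was not tested.

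In HE, markers of smooth muscle, heart and fibroblasts (*Acta2*, *Tagln*, *Tnnt2*, *Col1a1*, *Pdgfrb*) moved the same way as *Vwf* and *F2r*. With Dox 3 of the 5 fell (*Acta2*, *Col1a1* and *Pdgfrb*), with a median log2 change of -1.83 over the list, and their summed intensity ran from 103395 to 233336 without and from 36267 to 48920.1 with Dox. In HE2, where the *F2r* groups overlapped, 4 of 5 fell, at sums of 30515 to 103773 and 11661 to 12588. All 5 were well above background on every HE and HE2 array, and their part in the *F2r* and *Vwf* values was not tested.

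**Figure D2:**
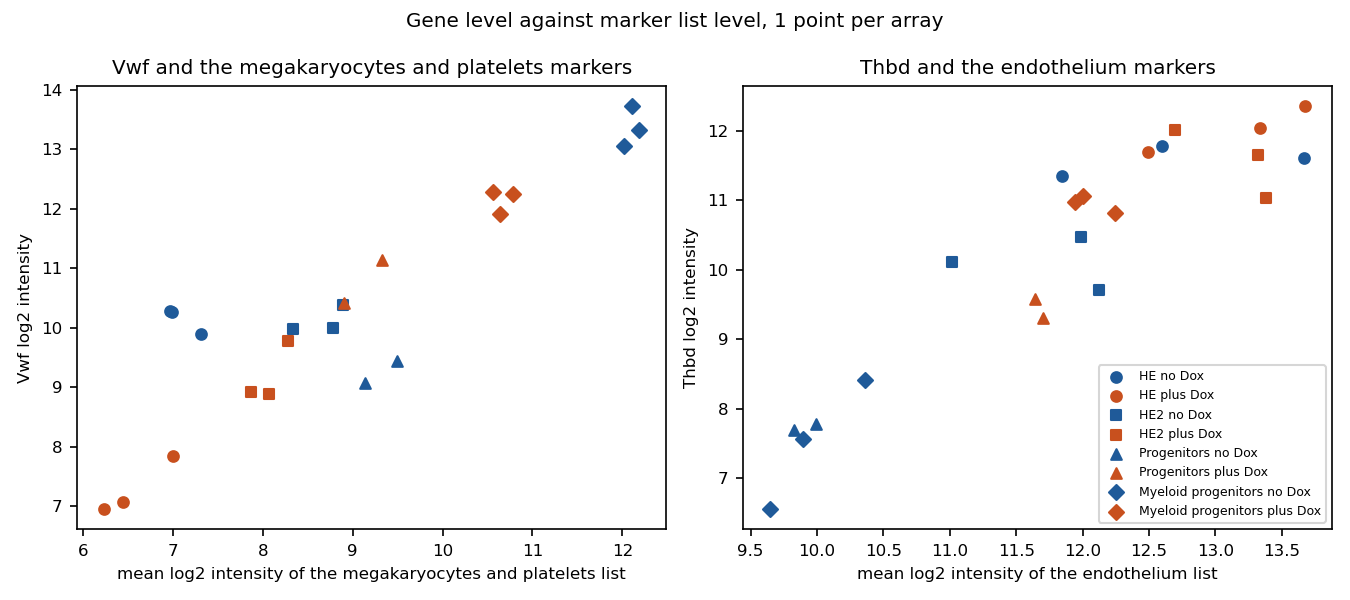
Log2 intensity (y axes) of *Vwf* against the mean of 7 megakaryocyte and platelet markers and of *Thbd* against the mean of 8 endothelial markers (x axes), 1 point per array, with stage as the shape and Dox as the colour. The 3 uninduced myeloid arrays hold the highest *Vwf* and marker readings, and uninduced HE arrays sit above induced HE arrays in *Vwf*.

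Among the genes that dissolve clots, tissue plasminogen activator was high in HE and not well above background in uninduced progenitors. *Plat* read 9.78, 8.73 and 11.44 in uninduced HE, 11.59, 9.49 and 10.84 in induced HE, 8.55, 7.03 and 7.42 in uninduced HE2 and 9.07, 8.73 and 7.45 in induced HE2. The arrays with and without Dox overlapped at both stages, and the spread within a group reached an SD of 1.37. In progenitors it read 5.28 and 4.95 without Dox, neither well above background, and 8.07 and 6.88 with Dox. This difference of 2.36 on the log2 scale missed the P limit (limma adjusted P = 0.0914). Under 75th percentile scaling that difference was 4.56 on the log2 scale, in place of 2.36, and passed (limma adjusted P = 0.00585). That alternative also started from another spot signal with another background correction. In myeloid progenitors *Plat* read 6.14, 7.58 and 6.67 without and 9.50, 9.20 and 9.59 with Dox. *Plat* rose there 6.21-fold (log2 change 2.63 ± 0.64, limma adjusted P = 0.00879), and the call was lost without uninduced array 1 or 3 or any induced array (2.31 to 2.75) and with slide as a block (2.63, limma adjusted P = 0.0118). From HE to HE2 the log2 difference was -2.32 ± 0.64 without and -2.22 ± 0.64 with Dox, neither of which passed. From uninduced HE2 to progenitors the log2 difference was -2.55 and did not pass (limma adjusted P = 0.0318). That step passed under 75th percentile scaling (-4.79, in place of -2.55) and with the additional array (-2.47), and the step from uninduced progenitors to myeloid progenitors was 3.86 and passed under 75th percentile scaling, in place of 1.68. All of these rest on progenitor readings not well above background.

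*Plaur*, the urokinase receptor, was measured on all arrays between 10.42 and 13.17. It read 12.39, 12.61 and 12.29 without and 12.84, 12.86 and 13.17 with Dox in HE, and 12.11, 12.04 and 11.40 without and 11.78, 11.32 and 11.67 with Dox in HE2. The step from HE to HE2 was a fall of 1.37 ± 0.26 with Dox (limma adjusted P = 0.00319) and -0.58 ± 0.26 without, which did not pass. In progenitors it read 12.41 and 11.997 without and 11.59 and 10.42 with Dox, a difference of -1.20 ± 0.32 (limma adjusted P = 0.031) that missed the P limit. Without induced array 1, which leaves 1 induced array, the difference was -1.79. Among the arrays of the fit, the 1 slide with both groups gave -0.82, from 1 array each. The additional uninduced array read 11.24, below induced array 1. In myeloid progenitors it read 11.07, 11.47 and 11.16 without and 12.26, 12.62 and 12.56 with Dox. *Plaur* rose there 2.37-fold (1.24 ± 0.26, limma adjusted P = 0.00265), a call lost without uninduced array 1 or induced array 2 (1.16 and 1.17) or under 75th percentile scaling (1.01, limma adjusted P = 0.0554).

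Urokinase itself read close to the limit of 6.5. *Plau* lay between 5.90 and 7.22 on all 23 arrays, with 1 array, induced progenitor array 2, not well above background. In progenitors it read 6.96 and 6.65 without and 5.90 and 5.92 with Dox, a difference of -0.89 ± 0.30 (limma adjusted P = 0.099). In myeloid progenitors it read 6.21, 6.98 and 6.25 without and 7.04, 6.92 and 7.08 with Dox, which overlap. In HE and HE2 all 12 arrays lay between 6.23 and 7.22, and the Dox differences were 0.27 and 0.06. None of the 9 comparisons between groups passed for *Plau*.

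**Figure D3:**
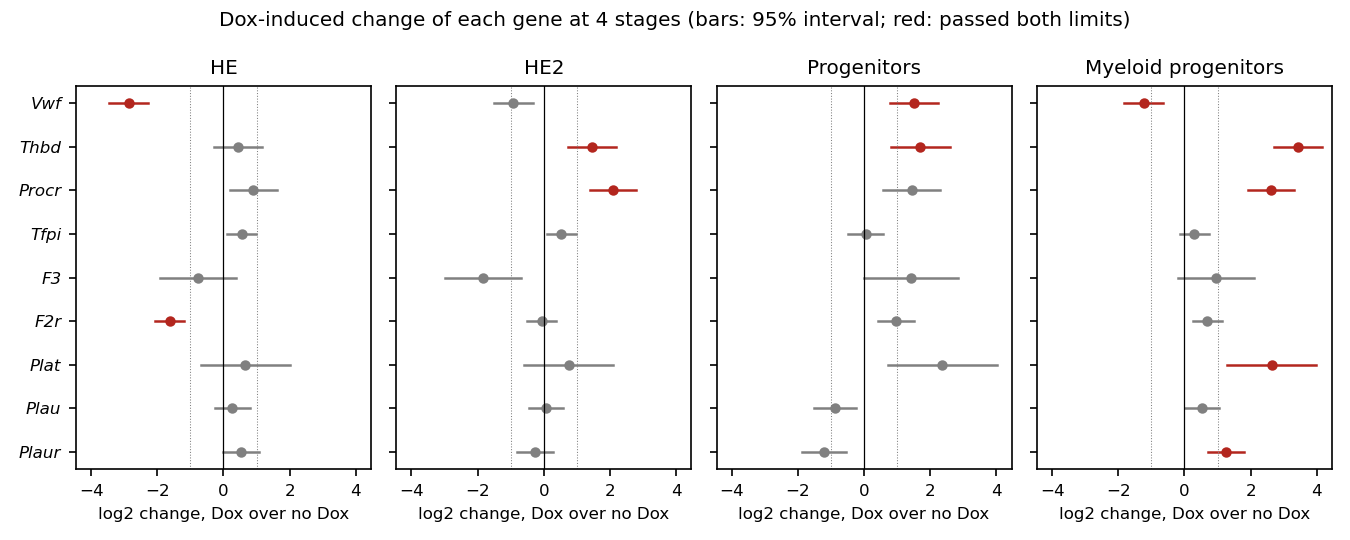
Log2 change with Dox (x axes) of each of the 9 genes at 4 stages, with 95% intervals from the fit as bars and genes past both limits in red. *Vwf* and *F2r* lie below 0 in HE, and *Thbd*, *Procr*, *Plat* and *Plaur* lie above 1 in myeloid progenitors.

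**Figure D4:**
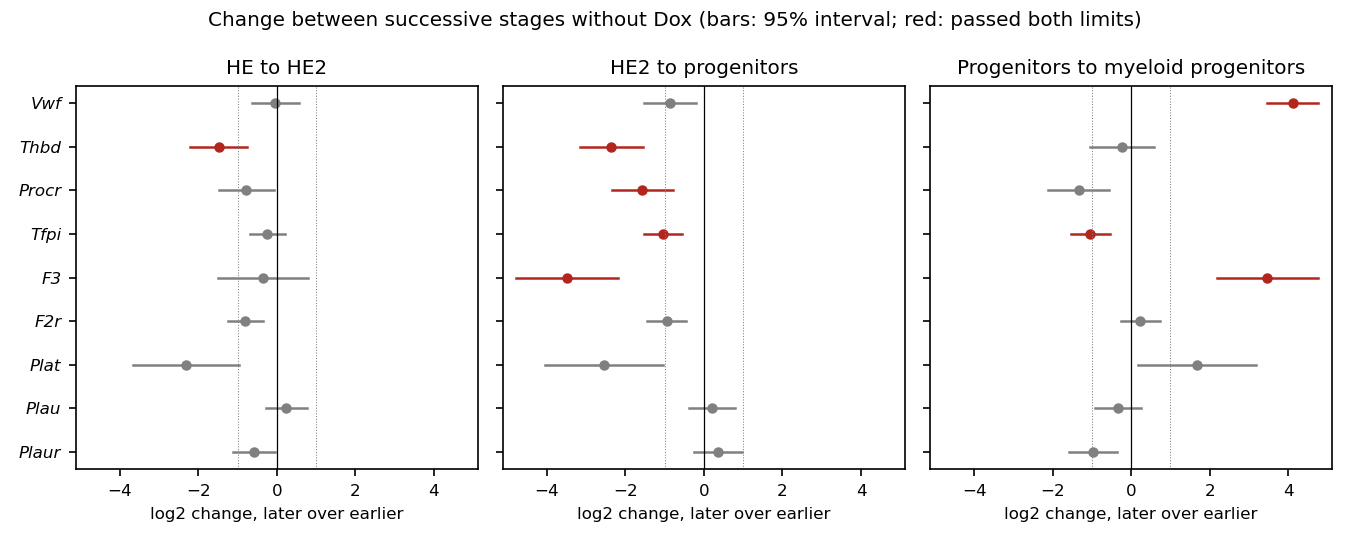
Log2 change between successive stages without Dox (x axes) of each of the 9 genes, with 95% intervals as bars and genes past both limits in red. *Thbd*, *Procr*, *Tfpi* and *F3* lie below 0 from HE2 to progenitors, and *F3* and *Vwf* above 3 in the following step.

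The response to Dox was then compared between stages by interaction terms, since a gene past the limits at 1 stage only is not thereby shown to respond differently at another. Between HE and HE2, 2 of 9 genes responded differently, *Vwf* by 1.94 ± 0.40 (limma adjusted P = 0.0246) and *F2r* by 1.56 ± 0.30 (limma adjusted P = 0.0181) on the log2 scale, against 1.34% of all genes. For both, the fall with Dox in HE was larger than the difference in HE2. Fitting the compared groups alone, *F2r* kept its size and missed the P limit (limma adjusted P = 0.121). For *Thbd* and *Procr*, which passed in HE2 and not in HE, the terms were 1.01 (interval -0.02 to 2.04) and 1.18 (interval 0.19 to 2.17) and did not pass. Between HE2 and progenitors, 1 of 9 differed, *Vwf* by 2.44 ± 0.45 (limma adjusted P = 0.0313), against 0.645% of all genes. That of *F3*, 3.24 ± 0.87, was larger and missed the P limit (limma adjusted P = 0.18), which it passed under 75th percentile scaling (3.93) and with the replicate number as a block (unadjusted P = 0.000613 by limma).

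Between HE and myeloid progenitors, 3 of 9 responded differently, against 4.72% of all genes. *Thbd* differed by 2.98 ± 0.49 (limma adjusted P = 0.000852), *F2r* by 2.31 ± 0.30 (limma adjusted P = 0.000126) and *Vwf* by 1.64 ± 0.40 (limma adjusted P = 0.0157). *F2r* fell with Dox in HE, and its values were higher with Dox on all 3 myeloid arrays. The *Vwf* term was lost in 8 of the 12 fits that left out 1 array of these groups, all but uninduced HE array 2, induced HE array 2, uninduced myeloid array 1 and induced myeloid array 3, at sizes of 1.47 to 1.61. It was lost as well on the log2 values the authors deposited (1.43) and with a normexp offset of 50 (1.39). The term of *Procr*, 1.72, passed with slide as a block (1.87, limma adjusted P = 0.0117). The time with Dox, the medium and the slide differ between these stages as well as the cell type, so that these cannot be told apart. All myeloid progenitor arrays lay on slide 3, and the HE arrays on slides 1 and 2.

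Of 41 other genes of coagulation and fibrinolysis, 30 were expressed and tested. With Dox, the HE cells had 5 of 30 changed, HE2 7, progenitors 3 and myeloid progenitors 4, beside the shares of all genes given above, and their median log2 differences were 0.01, 0.14, 0.10 and -0.00023. Multimerin 2 (*Mmrn2*), an endothelial matrix protein, rose in HE2 by 2.60 ± 0.29, in progenitors by 3.51 ± 0.36 and in myeloid progenitors by 2.99 ± 0.29 on the log2 scale. It read 9.82 and 9.27 in uninduced and 12.97 and 13.13 in induced progenitors, groups far apart.

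Further changes fell into roles as follows. *Entpd1* (CD39), which removes the platelet activator ADP, rose in HE by 2.25 ± 0.37 and in HE2 by 2.68 ± 0.37, and *F8*, the partner that von Willebrand factor carries in plasma, rose in HE by 1.63 ± 0.33 and in HE2 by 1.65 ± 0.33. In HE, *F8* read 6.62, 6.81 and 8.02 without and 9.52, 8.33 and 8.50 with Dox, while *Vwf* fell. *Anxa5*, which covers procoagulant phospholipid, rose in HE2 by 1.31 ± 0.25 and in myeloid progenitors by 1.52 ± 0.25. Of the other protease receptors, *F2rl3* (PAR4) fell in HE by 2.39 ± 0.38, as *F2r* did, and in HE2 by 1.51 ± 0.38, and *F2rl2* (PAR3) rose in progenitors by 2.23 ± 0.42. Factor V (*F5*) fell in HE by 1.76 ± 0.28 and in myeloid progenitors by 1.43 ± 0.28, factor XIII A (*F13a1*) in HE2 by 2.14 ± 0.46, and *Thbs1*, a platelet and matrix protein, in HE by 1.51 ± 0.31. The limma adjusted P of the changes named here was at most 0.0104.

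**Figure D5:**
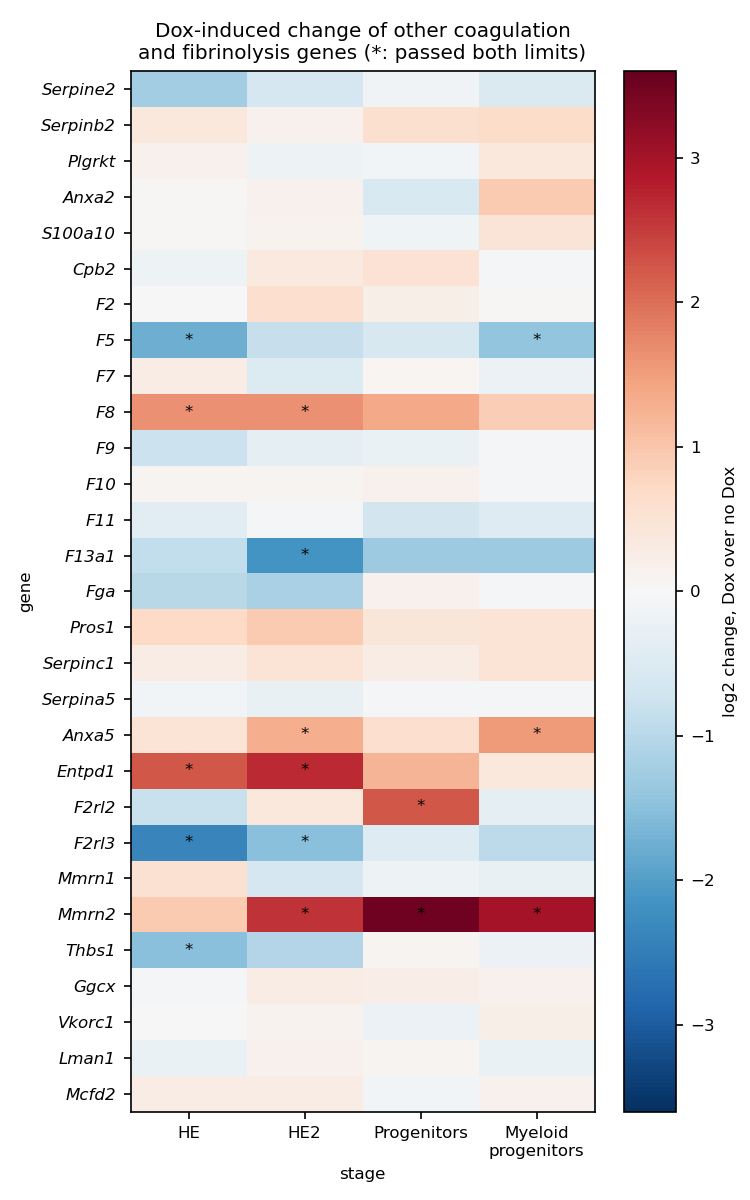
Log2 change with Dox (colour scale) of the other expressed coagulation and fibrinolysis genes that are reported here (y axis) at 4 stages (x axis), with a star where both limits were passed. *Mmrn2* is red at the 3 later stages, and *F2rl3* and *F5* are blue in HE.

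Over the 22 arrays of the fit, which share stages and Dox groups, genes most like each member by Pearson correlation, up to 2 each, were read out as a description. Among the closest to *Vwf* were *Diaph3* (r = 0.959) and *Fech* (0.931), to *Thbd* *Dysf* (0.980) and *Vsig2* (0.980), to *Procr* *Cmtm8* (0.977), and to *Tfpi* *Rcbtb1* (0.969) and *Ptprg* (0.966). Among those closest to *Plat* were *Cacnb3* (0.963) and *Kdelr3* (0.933), to *F3* *Spink1* (0.872), to *Plaur* *Dmkn* (0.862) and *Slc12a4* (0.816), and to *F2r* *Cpd* (0.851) and *Bmper* (0.838). *Plau* had no close companion, with 0.683 for *Rnf31* and 0.633 for *Ccl12*. Among the 9 genes, *Thbd* and *Procr* were the closest pair (0.892) and *Vwf* and *Tfpi* the most opposed (-0.842).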

How the data were processed

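RNA from sorted and cultured cells was hybridised to Agilent SurePrint G3 Mouse arrays in 1 colour. The authors deposited spot intensity values with the local background, read with Agilent Feature Extraction (version 10.7.1.1 in the submitters' processing notes) and not normalized between arrays, and log2 values per array that they had background-corrected and quantile normalized, used here as an alternative. From the median intensity and median background, values were corrected by normexp with an offset of 16, 3671 control spots and outlier spots were removed, and the 23 arrays were quantile normalized together. Probe accessions were looked up in RefSeq for GRCm38.p6, which was not the array's build and served for names and promoters. Group means were fitted on 22 arrays by limma 3.58.1 (lmFit, eBayes; R 4.3.3), with 14 residual degrees of freedom, and figures were drawn with matplotlib 3.10.9. The procedure was tested on simulated data for Dox in HE, where 83% of 200 genes shifted by 1.5 (log2) were called, with 7 false calls among the genes not shifted. The simulated noise was independent between arrays, with no slide effect or pairing, so that these rates may not hold for the data. The number of arrays limits the precision.

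The members, gene lists and tests were chosen with earlier results of these data known. Named genes were the 9 members, for each Dox comparison the largest rises and falls past the limits among the other pathway genes (up to 3 each, with others past the limits also given), the 2 genes most correlated with each member, and *Runx1t1*. Some genes that this rule selects are not reported here, though counts include them. Same-numbered uninduced HE and HE2 arrays deviated together from their group means (r = 0.394, 0.795 and 0.608 across genes), so that the numbers were taken to pair them. In both groups arrays 1 and 2 lay on slide 1 and array 3 on slide 2, so that a shared culture and a shared slide cannot be told apart here. The alternatives were other background corrections, normalizations, filters, probes, thresholds, samples and blocks. Replicates are called biological in the labels, apart from induced myeloid array 3, which its title calls biological and its source name technical. It was kept in the fit. Without it, 3 members changed with Dox in myeloid progenitors, *Thbd*, *Procr* and *Plaur*.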

Additional observations from a re-analysis of the deposited data

Results flagged for a closer look

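The response to Dox differed between stages for 3 of the 9 genes by the interaction terms of the limma fit. For *Vwf* the response in HE2 exceeded that in HE by 1.94 on the log2 scale, that in progenitors exceeded that in HE2 by 2.44, and that in myeloid progenitors exceeded that in HE by 1.64, the last of which missed the P limit in 8 of 12 fits without 1 array, on the deposited log2 values (1.43) and with a normexp offset of 50 (1.39). For *F2r* the response in HE2 exceeded that in HE by 1.56 and that in myeloid progenitors exceeded it by 2.31. For *Thbd* the response in myeloid progenitors exceeded that in HE by 2.98.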

How the results depend on the processing

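Among values for single genes under the alternatives other than leaving out an array, 1139 kept their direction and their side of the limits, 27 lost and 15 gained a call, and 7 turned sign without being called. The alternative that scaled each array to its 75th percentile started from the processed signal of Feature Extraction, without normexp and its offset of 16. It thus differs from the main processing in signal and background correction as well as in scaling. It put the median of all genes at -0.22 with Dox in progenitors, where the main processing gave -0.04. From progenitors to myeloid progenitors the median was -0.31, where the main processing gave -0.12. The 75th percentile scaling gave 0 members changed from HE to HE2 without Dox, 1 with Dox in HE2, 2 whose Dox response differed between HE2 and progenitors, and 4 other pathway genes changed with Dox in HE2. Fitting the compared groups alone gave 2 members changed from HE2 to progenitors with Dox and 1 without, 1 with Dox in HE2, 1 with Dox in progenitors, 1 whose response differed between HE and HE2, and 1 and 4 other pathway genes changed with Dox in HE and HE2. At an adjusted P of at most 0.05 with no limit on fold, 4 and 3 members changed from HE to HE2 with and without Dox, 5 from progenitors to myeloid progenitors, 4 with Dox in HE2 and 5 with Dox in progenitors. The share of all genes was not counted at this looser limit, nor under the other alternatives. These counts therefore cannot be set against all genes. With slide as a block, 1 member changed with Dox in progenitors, *F2r*, which had not passed before, while *Thbd* and *Vwf* were lost, and 1 from progenitors to myeloid progenitors, *Vwf*, while *F3* and *Tfpi* were lost. A count of the same size can also hold other genes: under the 75th percentile *Plat* and *Vwf* changed with Dox in progenitors, and *Plaur* was lost in myeloid progenitors. The cause of these shifts was not tested.

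With the replicate number as a block, 2 members differed in their Dox response between HE2 and progenitors in place of 1 (*F3* was added). *Procr* was added with Dox in progenitors (1.44), in the response in myeloid progenitors minus HE (1.72) and from progenitors to myeloid progenitors (-1.86), where *Tfpi* was lost (-0.93), and *Tfpi* was lost from HE2 to progenitors without Dox (-0.99). No member gained or lost a call from HE to HE2 without Dox, where the numbers were taken to pair the arrays. Same-numbered arrays correlated between -0.0955 and 0.694 with Dox in HE, between -0.534 and 0.360 in HE2 and between -0.127 and 0.212 in myeloid progenitors, and between -0.475 and 0.191 from HE to HE2 with Dox, so that the numbers were not taken to pair those. With only 2 pairs, the correlations were 0.229 and 0.229 with Dox in progenitors, 0.381 and 0.199 from HE2 to progenitors without and 0.162 and 0.118 with Dox, and -0.173 and -0.129 from progenitors to myeloid progenitors, too few pairs to decide on.

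Leaving out 1 array at a time, the members changed were 2 with Dox in HE in every fit, 1 to 2 in HE2, 0 to 2 in progenitors and 2 to 5 in myeloid progenitors. They were 0 to 2 from HE to HE2 without Dox, 2 to 3 with Dox, 2 to 4 from HE2 to progenitors without and 2 to 5 with Dox, and 2 to 3 from progenitors to myeloid progenitors. The members whose response differed were 2 between HE and HE2 in every fit, 1 to 2 between HE2 and progenitors and 2 to 3 between HE and myeloid progenitors. Other pathway genes changed with Dox were 4 to 5 in HE, 4 to 6 in HE2, 1 to 3 in progenitors and 4 in every fit in myeloid progenitors.

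None of the values that turned sign was called. *F2r* was -0.0049 from HE2 to progenitors with Dox and -0.075 from progenitors to myeloid progenitors under the 75th percentile, and -0.12 in the latter with the replicate block. *Plaur* was 0.067 in that step with slide as a block. *Tfpi* with Dox in progenitors was -0.090 under the 75th percentile and -0.059 with the additional array, and its response in HE2 minus HE was 0.12 as the mean of its probes. Without 1 array, the ranges that crossed 0 were -0.16 to 0.064 (*F2r*, Dox in HE2), -0.037 to 0.19 (*F2r*, HE2 to progenitors with Dox), -0.87 to 0.21 (*F3*, HE to HE2 without Dox), -0.56 to 0.064 (*F3*, HE2 to progenitors with Dox), -0.63 to 0.72 (*Plat*, response in HE2 minus HE), -0.22 to 0.21 (*Plau*, Dox in HE2) and -0.25 to 0.18 (*Plau*, HE to HE2 with Dox). They were -1.17 to 0.0053 (*Plaur*, HE2 to progenitors with Dox), -0.26 to 0.34 (*Tfpi*, Dox in progenitors), -0.15 to 0.18 (*Tfpi*, response in HE2 minus HE), -0.027 to 0.46 (*Thbd*, response in progenitors minus HE2), -0.68 to 0.25 (*Thbd*, progenitors to myeloid progenitors) and -0.16 to 0.036 (*Vwf*, HE to HE2 without Dox). Readings of *Plau*, and of *Plat* and *F3* in uninduced progenitors, lie near background, which limits their differences.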
